A study of Arabidopsis thaliana with 27 samples.

Results

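Leaves of wild-type (WT) Arabidopsis thaliana Col-0 plants that had been through a drought and were then re-watered were compared with leaves of WT plants that had been kept well-watered throughout. The comparison took in the 18077 of 34218 genes whose normalized count averaged 10 or more in either group, measured in 6 of the 27 samples of the study, 3 in each group. Around that limit, AT3G42800 was left out with a mean of 9.99 in its higher group and AT5G10430 was kept with 10.02. The study crossed 3 genotypes with 3 water treatments (well-watered, drought and re-watered), and its other genotypes carry full-length AtTOR, the gene of the target of rapamycin kinase, driven either by the 35S promoter (35S::AtTOR) or by a guard cell promoter from tobacco (GC::AtTOR). The WT groups carry no transgene. Well-watered pots were held near 60% of the full water holding capacity, water was withheld from the drought pots for 11 days, from 27 to 38 days after germination, and re-watered plants had then received water for 4 days. The day and the hour at which the well-watered leaves were taken are not given in the sources used here. Drought with re-watering, plant age and the hour of harvest therefore cannot be told apart in this contrast. The study's text reports that WT plants died under this drought schedule and that none recovered. Whether the re-watered WT leaves were recovering or dying was not tested. The part of plant survival in the differences between WT and the transgenic lines was not tested either. The sample records name both a long-day and a short-day chamber without saying which held these plants, and they place all samples in batch 1. Long days are given in the study's text for a drought from 27 days after germination, but its sequencing section names no day length. The study's text describes the 3 replicates of a group as biological, and the sample records do not say how many plants each held.

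When a leaf dries, abscisic acid (ABA) accumulates and binds the PYR/PYL receptors, which then block the clade A PP2C phosphatases and so release the SnRK2 kinases that switch on protective dehydration genes. After water returns, ABA is hydroxylated by the CYP707A enzymes and the proline stored during the stress is oxidised by proline dehydrogenase. Many leaf genes, among them those of light harvesting and starch turnover, also follow the circadian clock, an interlocked loop of morning and evening repressors, and their transcripts therefore differ between hours of the day in unstressed plants.

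The leaf label was checked against marker genes. The summed level of 4 root markers, none of which passed the filter, lay between 0 and 0.871 normalized counts in the well-watered samples and between 0 and 1.70 in the re-watered samples, whereas 20 of 21 light-harvesting genes passed. Recovered whole reads ranged from 12457648 to 16707106 in the well-watered and from 13472595 to 14057109 in the re-watered samples. The normalized totals, by contrast, ran from 13926167 to 14547853 against 11199711 to 11457177, and the 20 most abundant genes of a sample took 11.4 to 12.4% of the total in well-watered and 5.36 to 5.70% in re-watered leaves. In log2 values, correlations across genes were 0.981 to 0.991 between replicates and 0.792 to 0.834 between the groups. Because these are bulk leaves, fewer cells of a type and less RNA per cell cannot be told apart.

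A gene was called differentially expressed (a DEG) when its limma adjusted p was under 0.05 and its log2 fold change, re-watered minus well-watered on the scale of log2(normalized count + 1), was above 1 or below -1. Of all tested genes, 2628 (14.5%) were higher and 2887 (16%) were lower in re-watered leaves, which made 30.5% of them DEGs, and 64.6% passed the adjusted p at any fold. The 3 re-watered samples lay wholly above or wholly below the 3 well-watered samples in 75.6% of tested genes, and this held for 2612 of the higher and 2869 of the lower DEGs. Counts of list genes without overlap, given below, are to be read beside that 75.6%. The median log2 fold change was 0.03, the 5th and 95th percentiles were -2.20 and 2.23, and 1077 genes were above 2 while 1127 were below -2. The split between higher and lower DEGs depended on the scaling. Higher genes were 47.7% of DEGs with the deposited size factors, but 65.5% (3899 higher and 2051 lower) when every sample was set to the same normalized total, which raised the median of all genes to 0.35. Every fold change below uses the deposited scaling, and setting totals equal would raise each by about 0.32 on the log2 scale. Drought-treated WT leaves, set beside below, gave 1235 higher (6.83%) and 2334 lower (12.9%) DEGs against the same 3 well-watered samples, so both contrasts share their controls.

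**Figure D1:**
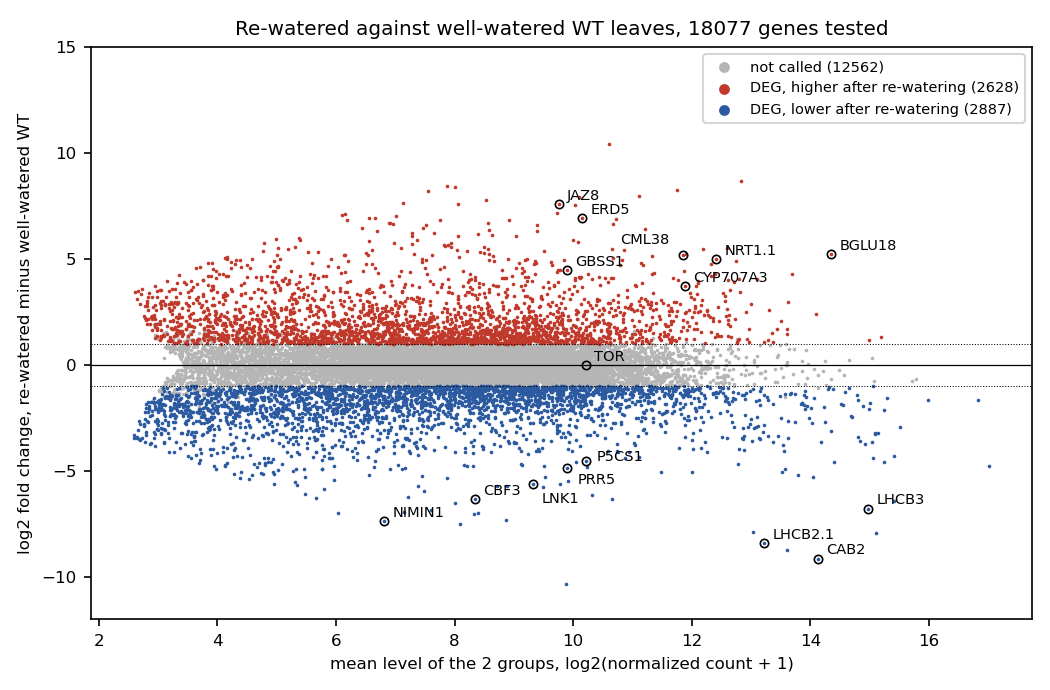
Each point is 1 of the 18077 tested genes, with the mean level of the 2 groups as log2(normalized count + 1) on the x axis and the log2 fold change of re-watered over well-watered leaves on the y axis, and coloured points are the 2628 higher and 2887 lower DEGs. Named genes are described in the text. LHCB2.1 (-8.42) and LNK1 (-5.64) lie low in the plot, ERD5 (6.92) and NRT1.1 (4.97) high, and TOR on the line of no change.

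Genes that build the light-harvesting antennae fell together in re-watered leaves. All 20 tested members of the family were DEGs and lower, at log2 fold changes from -9.14 to -1.04 with a median of -4.69, and none of their samples overlapped between the groups. The summed normalized count of the family was 881790 to 1107400 in well-watered, 317720 to 406440 in drought and 27136 to 48419 in re-watered leaves, so that the re-watered mean was 0.0391 of the well-watered mean. LHCB2.1, an antenna protein of photosystem II, had normalized counts of 14785, 23664 and 18710 in well-watered replicates 1 to 3 and of 46.2, 44.5 and 74.8 in re-watered replicates 1 to 3. The 2 groups were far apart (log2 fold change -8.42, standard error 0.23, limma adjusted p = 3.55e-17). In the drought samples LHCB2.1 stood in between, at 2228, 3588 and 3213. CAB2, a chlorophyll a/b binding protein of the same antenna, was counted at 21475, 51372 and 34119 in well-watered and 59.8, 34.6 and 95.2 in re-watered leaves (log2 fold change -9.14, standard error 0.52, limma adjusted p = 2.75e-12). CAB1, CAB2, CAB3, LHB1B1 and LHB1B2 are near-identical copies that share reads, and LHB1B2 was listed at 0 in all 6 samples, so how reads were divided among these copies is uncertain. On the photosystem I side, LHCA4 went from 74439, 100800 and 83980 to 1161, 655 and 1328 (log2 fold change -6.42, standard error 0.25, limma adjusted p = 4.71e-15). The smallest changes were those of LHCA5 at -1.04 and of the rarely expressed LHCB7 at -1.16, and both dropped out of the calls with equal totals.

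**Figure D2:**
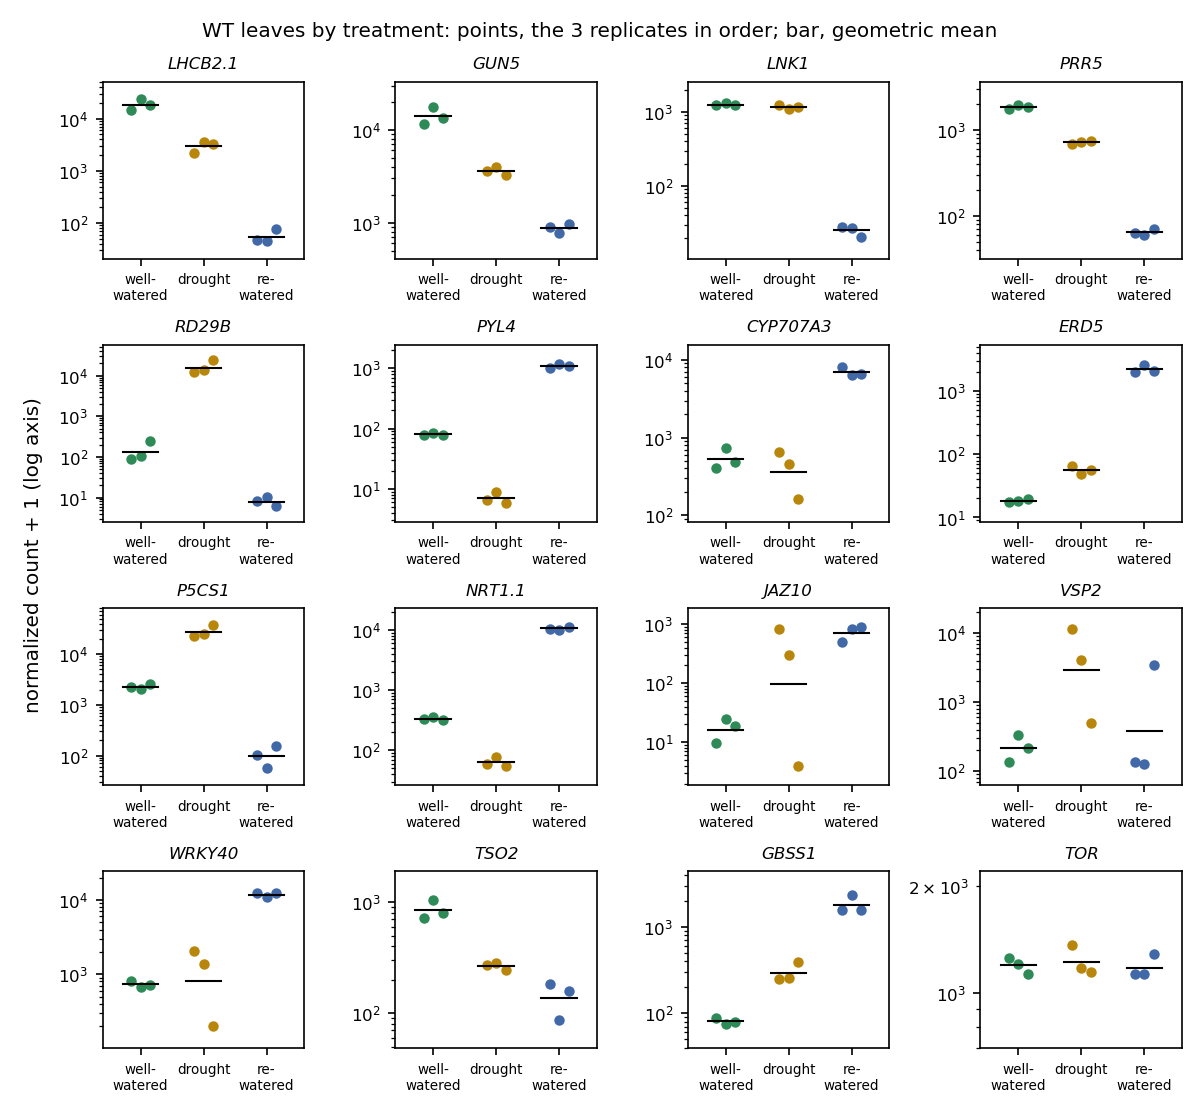
Normalized count + 1 on log axes for 16 genes in WT, with 1 panel per gene and 1 point for each of the 3 well-watered, 3 drought and 3 re-watered samples, and a bar at the geometric mean. LHCB2.1 is lowest in the 3 re-watered samples (44.5 to 74.8), while ERD5 (2039 to 2660) and NRT1.1 (10130 to 11088) are highest there.

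Subunits of the photosystems, the cytochrome complex and the chloroplast ATP synthase moved the same way, with 28 of 28 tested genes lower and a median of -2.94. PSAO, a small subunit of photosystem I, had the largest difference, from 39496, 44197 and 41091 in well-watered to 1732, 1389 and 2144 in re-watered leaves (log2 fold change -4.59, standard error 0.22, limma adjusted p = 1.43e-13). PETC, the Rieske iron-sulphur protein of the cytochrome b6f complex, had the smallest at -1.23 and was no longer called with equal totals. PSBS, the sensor of lumen pH in photoprotection, gave -1.81, and DRT112, the abundant plastocyanin that carries electrons to photosystem I, gave -2.44. In the Calvin cycle 12 of 18 tested genes were lower and none was higher (median -1.19), and 6 were lower with equal totals. RBCS1A, the main small subunit of Rubisco, went from 162090, 196730 and 171730 to 58163, 52126 and 58544 (log2 fold change -1.65, standard error 0.33, limma adjusted p = 0.00016). RBCS3B followed it at -1.57, but the remaining small subunits did not pass. RBCS1B differed by -0.23 (limma adjusted p = 0.45) and RBCS2B by 0.31 (limma adjusted p = 0.564), although these paralogs also share sequence. Drought-treated leaves had lower DEGs in both groups too, 21 of 28 (median -1.44) for the subunits and 11 of 18 (median -1.07) for the Calvin cycle.

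Chlorophyll synthesis was lower in 12 of 14 tested genes, with a median of -1.55. GUN5, the H subunit of the magnesium chelatase that commits protoporphyrin to chlorophyll, was at 11478, 17730 and 13338 in well-watered, 3608, 3959 and 3283 in drought and 900.3, 767 and 962 in re-watered leaves (log2 fold change -4.00, standard error 0.25, limma adjusted p = 1.17e-11). No sample of either end group overlapped. Large falls were also measured for CRD1, a subunit of the cyclase that closes the fifth ring of chlorophyll (-3.96), for PORB, a light-dependent protochlorophyllide reductase (-3.37), and for CAO, which makes chlorophyll b (-2.83). The first step of the pathway was the exception, since HEMA1, the glutamyl-tRNA reductase, gave 893, 2107 and 1309 in well-watered and 1895, 1827 and 1973 in re-watered leaves, which overlapped (log2 fold change 0.49, standard error 0.46, limma adjusted p = 0.356). FLU, a repressor of that step, also did not pass at -0.16 (limma adjusted p = 0.241). Of 10 chlorophyll breakdown genes 2 were higher and 3 lower (median -0.43), or 1 lower with equal totals. CLH1, a chlorophyllase, was higher by 2.67 and NYE2, a magnesium dechelatase, by 1.61, though NYE2 lost its call without well-watered replicate 2 (limma adjusted p = 0.111) or re-watered replicate 3 (0.0514). CLH2, the second chlorophyllase, fell by 2.14 on the log2 scale.

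Clock genes were mostly lower. Of 11 tested morning genes 7 were lower and 2 higher (median -1.51), and of 9 afternoon and evening genes 6 were lower and 1 was higher (median -2.10). The evening element (AAATATCT), which the morning repressors CCA1 and LHY bind, was in 66.7% of the 9 evening promoters, 18.2% of the 11 morning promoters and 6.15% of the 17990 promoters found for tested genes, counting both strands from 250 bases before to 50 after the annotated start. The G-box (CACGTG), a site of phytochrome-interacting and HY5 factors, was in 81.8% of the morning promoters against 9.02% of all. The following stretches, from the RefSeq TAIR10.1 assembly, hold the evening element in capitals (AGATATTT where it reads on the opposite strand), and are shown because their genes moved in both directions while sharing the same letters.
PRR5, chr5:8358700-8358759, minus strand: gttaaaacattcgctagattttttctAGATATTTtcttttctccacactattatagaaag
LUX, chr3:17182964-17183023, plus strand: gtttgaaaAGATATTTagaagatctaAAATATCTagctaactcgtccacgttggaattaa
BOA, chr5:24003819-24003878, plus strand: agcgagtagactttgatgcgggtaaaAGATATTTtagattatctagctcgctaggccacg
FKF1, chr1:25508427-25508486, plus strand: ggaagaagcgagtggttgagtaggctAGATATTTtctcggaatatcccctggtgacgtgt
TOC1, chr5:24674786-24674845, plus strand: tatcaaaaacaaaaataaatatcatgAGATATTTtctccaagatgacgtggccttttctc
A match of these letters is a description and no measured binding site.

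PRR5, an afternoon pseudo-response regulator that represses CCA1, was at 1755, 1928 and 1869.8 in well-watered and 61.3, 59.3 and 68.9 in re-watered leaves (log2 fold change -4.85, standard error 0.14, limma adjusted p = 4.65e-17). Drought samples held 686, 729 and 748. GI, the GIGANTEA protein that stabilises the blue light receptor FKF1, went from 3841, 3460.1 and 3503 to 163, 156 and 187 (log2 fold change -4.41, standard error 0.13, limma adjusted p = 4.2e-17), and FKF1 itself changed by -3.85. LUX, the DNA-binding partner of the evening complex, went from 1618, 1768 and 1642 to 318, 270.1 and 276 (log2 fold change -2.54, standard error 0.10, limma adjusted p = 4.71e-15). BOA, its close homologue with an evening element in its promoter as well, moved the opposite way, from 69.7, 63.1 and 74.3 to 301, 312 and 345 (log2 fold change 2.20, standard error 0.12, limma adjusted p = 1.89e-12). TOC1 differed by -0.99, just inside the limit of -1 and so not called, and ELF3, the scaffold of the evening complex, did not pass (0.22, limma adjusted p = 0.106).

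Among the morning genes LNK1, a coactivator of the RVE transcription factors, had the largest difference, from 1224, 1311 and 1228 to 27.1, 26.3 and 19.6 (log2 fold change -5.64, standard error 0.15, limma adjusted p = 3.16e-17). In drought LNK1 stood at 1248, 1089.8 and 1174, close to the well-watered samples. PRR7 went from 3808, 4073 and 3912 to 329.9, 262 and 269.6 (log2 fold change -3.78, standard error 0.08, limma adjusted p = 7.29e-19) and PRR9, its partner in repressing CCA1 by day, from 47.0, 50.2 and 65.0 to 1.59, 0.823 and 2.55 (log2 fold change -4.41, standard error 0.46, limma adjusted p = 3.12e-08). CCA1 was lowly counted in every WT group, at 34.8, 36.2 and 44.7 in well-watered and 12.7, 14.0 and 11.9 in re-watered leaves (log2 fold change -1.51, standard error 0.44, limma adjusted p = 0.00519). LHY, its close relative, differed by -1.18 but was not called without re-watered replicate 1 (limma adjusted p = 0.117) or with equal totals. The higher pair were RVE8 (2.70) and RVE1 (2.75), MYB-like activators of afternoon genes and of auxin synthesis, respectively. In drought 2 morning genes were higher and 1 lower (median -0.05), and 1 evening gene was higher and 1 lower (median -0.33).

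**Figure D3:**
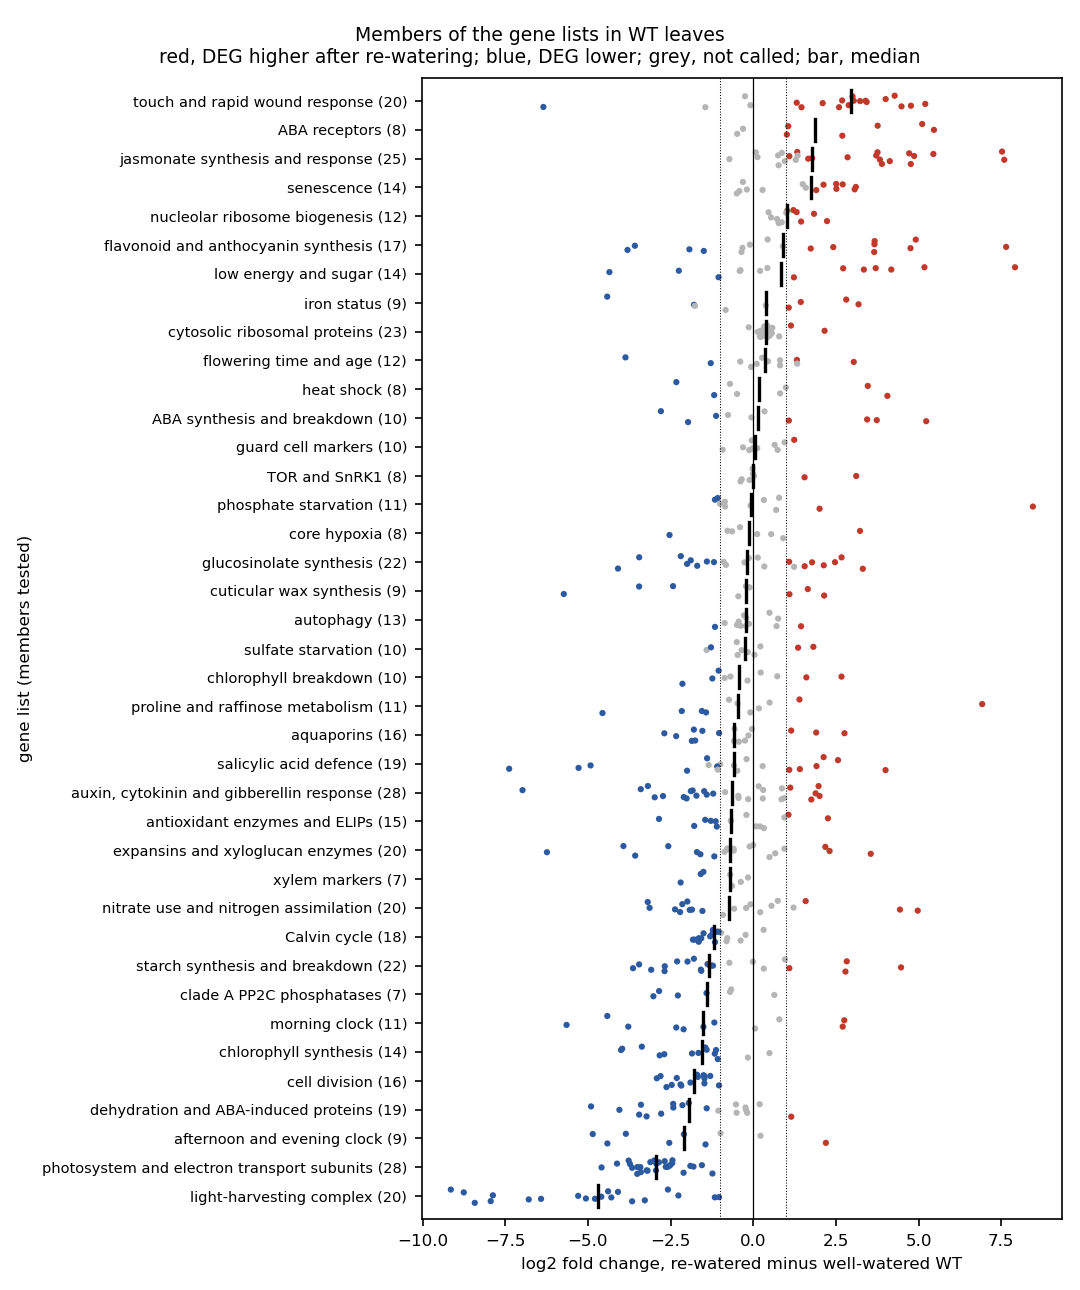
For the gene lists with 7 or more tested genes on the y axis, each point is the log2 fold change of 1 tested gene in re-watered over well-watered WT leaves on the x axis, and the bar marks the median of the list. The 20 light-harvesting genes all lie left of -1, whereas 16 of 20 touch genes are higher DEGs. Lists are ordered by their median.

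Most genes of the dehydration response were lower after re-watering than in leaves kept watered. Of 19 tested genes for dehydration- and ABA-induced proteins 11 were lower and 1 was higher, with a median of -1.95, whereas in drought 9 were higher and 2 lower (median 0.99). RAB18, a dehydrin, was at 551, 582 and 728 in well-watered, 31938, 50115 and 83163 in drought and 69.3, 47.8 and 82.5 in re-watered leaves (log2 fold change -3.23, standard error 0.48, limma adjusted p = 5.55e-06 for re-watered against well-watered). RD29B, a widely used ABA reporter gene, went from 87.1, 104 and 244 through 12053, 13905 and 23869 to 7.17, 9.06 and 5.10 (log2 fold change -4.05, standard error 0.54, limma adjusted p = 1.3e-06). For both genes the re-watered samples were the lowest of the 3 groups and the drought samples the highest. COR15B (-4.90) and COR15A (-3.40), chloroplast proteins that protect membranes in cold and drought, were also lower, as was the transcription factor gene RD26 (-2.78). The dehydrins COR47 and ERD14 did not pass (log2 fold changes 0.20 and -0.18). ERD7 was the higher member at 1.15. The core of the ABA response element is ACGTG, letters that also end the G-box. Searched on both strands, it was in 68.4% of the 19 promoters and in 27.6% of all. It was also in 88.9% of the evening clock, 81.8% of the morning clock and 55% of the light-harvesting promoters, so it did not set this list apart.

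Most ABA receptor genes rose, and most of their phosphatase partners fell. Of 8 tested receptors 6 were higher and none lower (median 1.88, all 8 without overlap), and the summed receptor level was 1770 to 1899 normalized counts in well-watered, 875 to 927 in drought and 5374 to 6293 in re-watered leaves. PYL4 was at 77.5, 84.1 and 75.9 in well-watered and 993, 1174 and 1096 in re-watered leaves (log2 fold change 3.76, standard error 0.23, limma adjusted p = 6.76e-12), having been at 5.62, 8.01 and 4.92 in drought. PYR1 went from 243, 244 and 257 to 1567, 1777 and 1498 (log2 fold change 2.69, standard error 0.11, limma adjusted p = 1.45e-14). PYL5 had 16.6, 22.2 and 7.59 against 499, 573 and 499 (log2 fold change 5.11, standard error 0.54, limma adjusted p = 3.96e-08). PYL6 had only 2 reads in the well-watered libraries together, and the re-watered level was 113-fold higher, with a 95% counting interval of 30.9 to 937. PYL1 (1.06) and PYL8 (1.01) lay close to the limit of 1, PYL1 falling to 0.98 without well-watered replicate 3 and PYL8 to 0.94 to 1.00 in 3 of the leave-one-out fits. Among 7 clade A PP2C genes 4 were lower and none higher (median -1.41), against 5 higher in drought (median 1.41). HAI1 went from 54.0, 84.1 and 115 to 7.17, 2.47 and 34.9 (log2 fold change -3.02, standard error 0.59, limma adjusted p = 0.000125), with 2056, 2573 and 3703 in drought, and ABI2 changed by -2.85. ABI1 (-0.67) and HAB1 (0.64) did not reach the limit.

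Several genes that remove or release ABA rose. CYP707A3, an ABA 8′-hydroxylase, went from 409, 733 and 485 to 8061, 6406 and 6677 (log2 fold change 3.73, standard error 0.45, limma adjusted p = 3.38e-07), with 655, 453 and 158 in drought. CYP707A1 rose by 3.44, whereas CYP707A2 changed by -1.97. BGLU18, a β-glucosidase that frees ABA from its glucose ester, was at 858, 801 and 1741 in well-watered and 33284, 37678 and 50462 in re-watered leaves (log2 fold change 5.23, standard error 0.40, limma adjusted p = 2.62e-10). All 3 re-watered samples lay far above the highest well-watered sample. ABA1, the zeaxanthin epoxidase at the start of ABA synthesis, went down from 3038, 3342 and 2977 to 479.6, 413 and 456 (log2 fold change -2.79, standard error 0.14, limma adjusted p = 3.3e-13). NCED3, the rate-limiting dioxygenase, gave 1.08 but lost its call without re-watered replicate 3 (limma adjusted p = 0.0816). In all, 4 of 10 ABA synthesis and breakdown genes were higher and 3 lower (median 0.14).

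ERD5 and P5CS1, of proline degradation and synthesis, changed in opposite directions. ERD5, the proline dehydrogenase of mitochondria, was at 16.6, 17.5 and 18.6 in well-watered, 65.5, 47.2 and 55.1 in drought and 2039, 2660.2 and 2088 in re-watered leaves (log2 fold change 6.92, standard error 0.25, limma adjusted p = 2.82e-15). P5CS1, which makes proline under stress, was at 2278, 2026 and 2557 in well-watered, then at 22797, 25062 and 36702 in drought and at 100.4, 56.8 and 153 in re-watered leaves (log2 fold change -4.56, standard error 0.35, limma adjusted p = 3.4e-10). ERD5 was thus highest, and P5CS1 lowest, in the re-watered samples, and neither overlapped with another group. The promoter of ERD5 carries ACTCAT, a sequence known from the response of this gene to rehydration and low osmolarity, in capitals on the opposite strand (ATGAGT) and shown here because ERD5 had one of the largest rises, a choice made after its values were seen.
ERD5, chr3:12451557-12451606, minus strand: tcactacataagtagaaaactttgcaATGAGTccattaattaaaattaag
ALDH12A1, which acts after ERD5 in proline degradation, was lower (-1.55), and the synthesis genes P5CS2 (-0.73) and P5CR (0.49) were not called. The motif was in 13.9% of all promoters of tested genes. The promoter of BCAT-2, whose larger rise is given below, was searched as well and held no match. Across the 11 proline and raffinose genes 2 were higher and 4 lower (median -0.47), while in drought 6 were higher and 2 lower (median 1.24). GOLS2, a galactinol synthase of drought, changed by -2.16, and GOLS1, its heat-inducible relative, by 1.40.

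Starch genes were lower in 14 and higher in 4 of 22 tested (median -1.35, 21 without overlap), whereas in drought 1 was lower and 3 were higher (median -0.24). SEX1, the glucan water dikinase that opens starch granules for degradation, was at 35376, 32380 and 33623 in well-watered and 5246, 5260.3 and 5353 in re-watered leaves (log2 fold change -2.68, standard error 0.17, limma adjusted p = 1.89e-11). PHS1, the plastid starch phosphorylase, changed by -3.63 and DPE2, which handles maltose in the cytosol, by -3.09. GBSS1, the granule-bound synthase of amylose, moved the other way, from 88.0, 73.6 and 77.6 to 1571, 2316 and 1554 (log2 fold change 4.47, standard error 0.30, limma adjusted p = 3.96e-11), as did the β-amylase genes BAM5 (2.83) and BAM9 (2.79). BAM3, the main plastid β-amylase of the night, differed by -0.01 (limma adjusted p = 0.979). Among 14 low energy and sugar genes 7 were higher and 3 lower (median 0.83). BCAT-2, an aminotransferase of branched-chain amino acids, was at 7.84, 3.50 and 17.7 in well-watered and 2057, 2467 and 2058 in re-watered leaves (log2 fold change 7.91, standard error 0.61, limma adjusted p = 3.6e-10). GPT2, a sugar-induced glucose-phosphate translocator of plastids, rose by 5.18, and DIN10, a gene induced by darkness, by 2.72. BT2, a scaffold protein repressed by sugar, changed by -4.35.

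Nitrogen genes split. Of 20 tested genes of nitrate use and assimilation 3 were higher and 9 lower (median -0.75), and 5 were higher with equal totals. NRT1.1, the dual-affinity nitrate transporter and sensor, was at 325, 359.7 and 323 in well-watered, 58.1, 77.5 and 54.1 in drought and 10511, 10130 and 11088 in re-watered leaves (log2 fold change 4.97, standard error 0.15, limma adjusted p = 1.41e-16). NRT1.8, which unloads nitrate from the xylem, rose from 1.74, 2.34 and 0.844 to 36.6, 52.7 and 83.3 (log2 fold change 4.43, standard error 0.64, limma adjusted p = 3.24e-06). NRT2.5, a high-affinity transporter of nitrogen-starved plants that is among the 15 top risers but outside this list, was at 0 in all well-watered samples and at 126, 177 and 119.9 in re-watered ones, at least 48.9-fold higher against a floor of 3 reads per library. The third higher gene was GDH1, a glutamate dehydrogenase (1.58), while the xylem-loading transporter NRT1.5 was lower (-1.99). NIR1, the nitrite reductase, changed by -1.92 and GS2, the plastid glutamine synthetase, by -1.54. NIA1, a nitrate reductase, changed by -2.14 while NIA2, its main leaf copy, did not pass (0.21, limma adjusted p = 0.371). LBD37 (-3.19) and LBD39 (-3.13), repressors of nitrate-responsive genes, fell. In the phosphate starvation list 2 of 11 were higher and 2 lower (median -0.08), with none lower at equal totals and 1 lower without well-watered replicate 3. RNS1, an extracellular ribonuclease of that list, had 1 read in the well-watered libraries together and was 1482-fold higher in re-watered leaves (95% counting interval 266 to 58571). In the sulfate list 2 of 10 were higher and 1 lower (median -0.26, with none lower at equal totals and 2 lower without well-watered replicate 2 or re-watered replicate 3). Of 9 iron genes 4 were higher and 2 lower (median 0.38). FER1, the iron store ferritin, was among the higher ones, from 367, 363 and 382 to 2889, 4583 and 2906 (log2 fold change 3.18, standard error 0.41, limma adjusted p = 8.76e-07), as was YSL1, a transporter of iron chelates (2.81).

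Most jasmonate genes rose and none fell. Of 25 tested genes of jasmonate synthesis and response 16 were higher (median 1.78), and 6 were higher and 2 lower in drought (median 1.31). The groups did not overlap in 21 of the 25, near the share of 75.6% for all tested genes. JAZ8, a repressor of jasmonate signalling, was at 6.10, 15.2 and 5.06 in well-watered and 1797, 1898 and 1457 in re-watered leaves (log2 fold change 7.59, standard error 0.95, limma adjusted p = 4.87e-07). CYP94B3, which inactivates the hormone by hydroxylation, went from 12.2, 9.34 and 9.28 to 1817, 2348 and 2042 (log2 fold change 7.52, standard error 0.68, limma adjusted p = 3.83e-09). AOC1, an allene oxide cyclase of jasmonate synthesis with close paralogs that may share reads, went from 332, 301 and 466 to 7946, 11658 and 10157 (log2 fold change 4.76, standard error 0.54, limma adjusted p = 1.24e-07). The samples were uneven, however. The list median above the well-watered mean was 1.52, 1.62 and 3.87 in re-watered replicates 1 to 3 and 2.90, 1.78 and -0.83 in the drought replicates. VSP2, a vegetative storage protein, was high in re-watered replicate 3 alone (134, 125 and 3442, against 135, 333 and 213 in well-watered leaves) and did not pass (log2 fold change 0.86, standard error 1.02, limma adjusted p = 0.468). PDF1.2, a plant defensin, was at 1548, 142 and 1455 in the re-watered samples and at 107, 21.0 and 58.2 in the well-watered ones (log2 fold change 3.72, standard error 0.88, limma adjusted p = 0.000928). The synthesis enzymes AOS and LOX2 and the repressors JAZ2 and JAZ9 lost their calls in at least 1 leave-one-out fit. The part that this spread between samples has in the list result was not tested.

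Genes of the touch and rapid wound response had the highest median of the lists, 2.94, with 16 of 20 tested genes higher and 1 lower. Their summed level was 15231 to 18843 in well-watered, 5845 to 32143 in drought and 106660 to 110990 in re-watered leaves. CML38, a calmodulin-like calcium sensor, was at 175, 223 and 188 in well-watered and 7868, 7141 and 6603 in re-watered leaves (log2 fold change 5.20, standard error 0.75, limma adjusted p = 3.31e-06). WRKY40, a repressor of defence genes that is induced within minutes of wounding, went from 813, 676 and 721 to 12375, 10827 and 12250 (log2 fold change 4.00, standard error 0.62, limma adjusted p = 9.6e-06). TCH4, a xyloglucan endotransglucosylase first found as touch-induced, rose by 3.43, and TCH2, a calmodulin-like protein, by 2.69. CBF3, a master regulator of cold tolerance, was the exception. Its counts were 679, 559 and 682 in well-watered and 6.37, 7.41 and 6.80 in re-watered leaves (log2 fold change -6.35, standard error 0.28, limma adjusted p = 6.1e-14), whereas CBF2, encoded next to it in the genome, was higher by 1.46 and CBF1 did not pass (-0.25, limma adjusted p = 0.686). Over the list, the 3 re-watered samples were even, at 2.92, 2.93 and 2.86 above the well-watered mean, whereas the drought samples were at 1.05, 0.48 and -1.79.

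**Figure D4:**
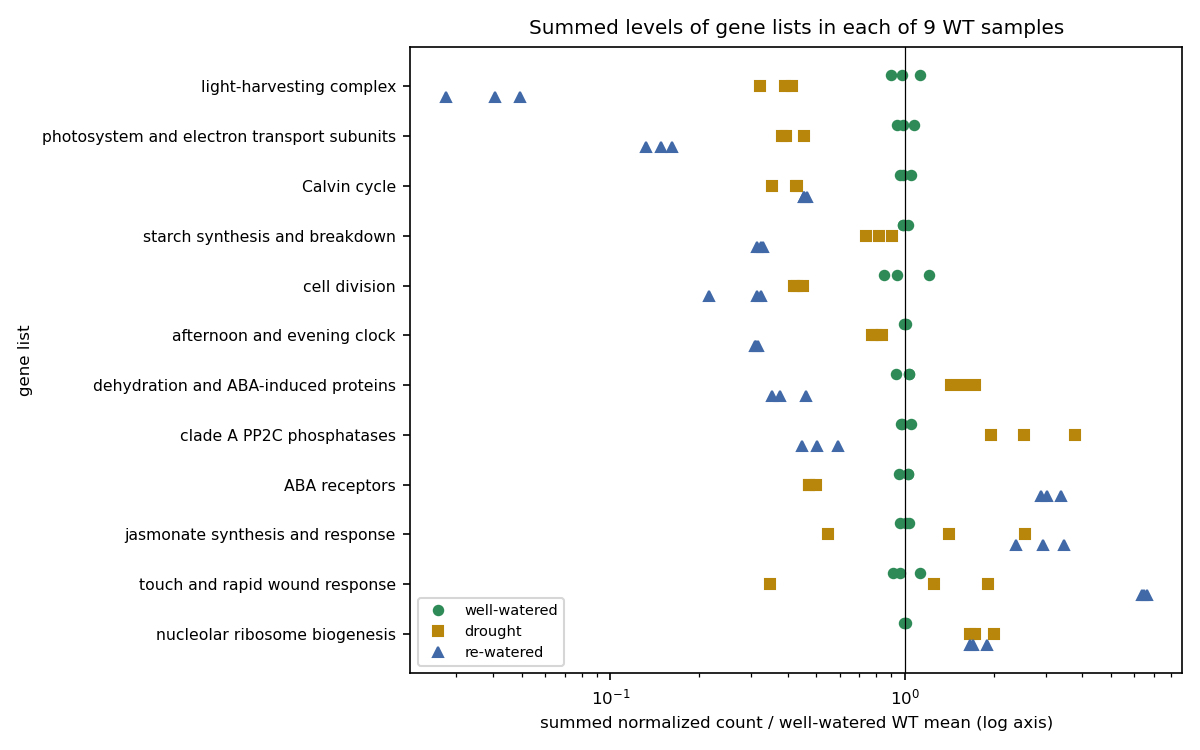
For 12 gene lists on the y axis, each point is the summed normalized count of 1 WT sample divided by the mean of the 3 well-watered samples, on a log x axis, with circles for well-watered, squares for drought and triangles for re-watered samples. Re-watered samples average 0.0391 for light-harvesting genes and 6.49 for touch genes, and in both lists they lie outside the other 6 samples.

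Salicylic acid defence had no common direction, with 6 of 19 genes higher and 6 lower (median -0.59), against 13 lower and none higher in drought (median -1.89). PR5, a thaumatin-like defence protein, went from 1471, 1529.8 and 1306 to 46.2, 17.3 and 57.0 (log2 fold change -5.28, standard error 0.95, limma adjusted p = 5.17e-05). In drought PR5 was as low, at 42.1, 41.8 and 43.3. NIMIN1, a partner of the salicylic acid receptor NPR1, had 1 read in the re-watered libraries together, and well-watered leaves were 780-fold higher (95% counting interval 139 to 30835). EDS5, the transporter that exports the salicylic acid precursor from plastids, was higher by 2.13, and PR1 did not pass (-1.35, limma adjusted p = 0.477). Senescence genes were higher in 7 of 14 and lower in none (median 1.75). SAG21, a mitochondrial LEA protein induced in ageing leaves, went from 285, 251 and 295 to 2955, 1789.9 and 2558 (log2 fold change 3.10, standard error 0.37, limma adjusted p = 2.76e-07). SAG12, the cysteine protease typical of late senescence, was listed at 0 in the 6 samples. Of 8 heat shock genes 2 were higher and 2 lower (median 0.16, and 4 higher and 1 lower with equal totals). HSFA2, a heat stress transcription factor, went from 29.6, 39.7 and 31.2 to 517, 769.8 and 462 (log2 fold change 4.06, standard error 0.44, limma adjusted p = 6.55e-08). Core hypoxia genes, which flooded tissue induces, gave 1 higher and 1 lower of 8 (median -0.14, with 2 higher at equal totals or without well-watered replicate 1). HRE1, an ethylene response factor of hypoxia, was the higher one (3.23) and SUS1, a sucrose synthase, the lower (-2.53).

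Flavonoid and anthocyanin genes were higher in 8 and lower in 4 of 17 tested (median 0.90), beside 16 higher and 1 lower in drought (median 2.49). DFR, the dihydroflavonol reductase that opens the anthocyanin branch, was at 20.0, 73.6 and 43.0 in well-watered and 896, 1399 and 1503 in re-watered leaves (log2 fold change 4.91, standard error 0.60, limma adjusted p = 3.9e-07). PAP2 (MYB90), an activator of that branch, had 2 reads in the well-watered libraries together and was 444-fold higher in re-watered leaves (95% counting interval 123 to 3675). FLS1, which draws the same substrate into flavonols, went the opposite way (-3.80), and so did MYBL2, a repressor of the anthocyanin branch (-3.58). The remaining lower genes of the list were MYB111 (-1.93) and PAP1 (-1.50), which thus changed in the direction opposite to PAP2. TT4, the chalcone synthase at the head of the pathway, did not pass (-0.33, limma adjusted p = 0.463). Of 22 glucosinolate genes 7 were higher and 8 lower (median -0.20). MAM3, a chain-elongating methylthioalkylmalate synthase, rose from 51.4, 36.2 and 73.4 to 533, 568 and 467 (log2 fold change 3.31, standard error 0.78, limma adjusted p = 0.000832), whereas TGG1, the myrosinase that breaks glucosinolates down, fell from 13567, 32909 and 21539 to 838, 996 and 2328 (log2 fold change -4.09, standard error 0.48, limma adjusted p = 2.39e-07). MAM1 (-1.19, not called with equal totals) and IPMI2 (-2.19) of the glucosinolate list were lower, unlike MAM3. The antioxidant list also held NADPH oxidase and early light-induced protein genes. Of its 15 tested genes 2 were higher, APX1 (1.06) and RBOHD, and 6 were lower (median -0.67, with 3 lower at equal totals and 1 higher without well-watered replicate 1). CSD2, a chloroplast copper/zinc superoxide dismutase, changed by -2.85 and RBOHD, the NADPH oxidase that produces superoxide, by 2.26.

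At the leaf surface and in the wall single genes changed strongly while the lists split. CER1, which makes the alkanes of cuticular wax, went from 544, 1087 and 836 to 15.1, 12.3 and 14.5 (log2 fold change -5.73, standard error 0.30, limma adjusted p = 6.36e-13), whereas CER3, its partner in the same step, was higher by 2.14. The wax list had 3 of 9 genes higher and 3 lower (median -0.22). EXPA11, an expansin that loosens growing walls, went from 353, 265 and 264 to 3.98, 1.65 and 3.40 (log2 fold change -6.24, standard error 0.45, limma adjusted p = 1.06e-10), and XTH24, a xyloglucan enzyme, rose by 3.55. In that list 3 of 20 were higher and 7 lower (median -0.69), or 4 lower when a mean of at least 50 was required. Of 16 aquaporin genes 3 were higher and 7 lower (median -0.57), against 2 higher and 11 lower in drought (median -1.61). RD28, a plasma membrane water channel, rose by 2.76, whereas PIP2;5 changed by -2.69.

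Cell division genes fell throughout. All 16 tested were lower, without overlap between the groups (median -1.80), and in drought 9 were lower (median -1.31). TSO2, a small subunit of the ribonucleotide reductase that supplies DNA precursors, was at 716, 1049 and 794 in well-watered and 182, 86.5 and 158 in re-watered leaves (log2 fold change -2.62, standard error 0.32, limma adjusted p = 3.45e-07). PCNA1, the sliding clamp of DNA replication, went from 107, 224 and 151 to 26.3, 13.2 and 21.3 (log2 fold change -2.92, standard error 0.34, limma adjusted p = 2.12e-07). CDKB1;1, a mitotic cyclin-dependent kinase, changed by -2.80. Many of these genes have low counts, and 8 were lower DEGs when a mean of at least 50 was required. The cyclin gene CYCA1;1 and the replication helicase gene MCM3 lost their calls in leave-one-out fits. Among auxin, cytokinin and gibberellin genes 5 of 28 were higher and 13 lower (median -0.65). GA2OX1, a gibberellin-inactivating oxidase, was at 88.0, 166 and 133 in well-watered samples and at 0 in all re-watered samples, at least 52.2-fold lower against the floor of 3 reads per library. GA20OX1, of gibberellin synthesis, changed by -3.40, IAA6, an auxin-induced repressor, by -3.19, and the gibberellin receptor gene GID1B by 2.00. Flowering and age genes gave 2 higher and 2 lower of 12 (median 0.36), with 4 higher and 1 lower at equal totals and 1 higher without well-watered replicate 2. SPL9, a promoter of the adult phase, went from 221, 207 and 192 to 15.9, 13.2 and 11.1 (log2 fold change -3.86, standard error 0.25, limma adjusted p = 2.44e-11), and CO, the day length regulator of flowering, was higher by 3.04.

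No difference was detected in the transcript of AtTOR itself in WT. Its normalized counts were 1250.1, 1205 and 1128 in well-watered, 1362, 1174 and 1144 in drought and 1127, 1126 and 1282 in re-watered leaves (log2 fold change -0.02, standard error 0.16, limma adjusted p = 0.917), and the sign turned to 0.30 with equal totals. RAPTOR1B, which recruits substrates to the kinase, gave -0.01 and LST8-1, its other partner, -0.35, both short of the limit. The S6 kinases, which TOR phosphorylates, were higher. S6K2 went from 203, 199 and 208 to 1782, 1617 and 1909 (log2 fold change 3.11, standard error 0.44, limma adjusted p = 2.85e-06) and S6K1 from 367, 418 and 395 to 1076, 1347 and 1056 (log2 fold change 1.55, standard error 0.13, limma adjusted p = 1.02e-09), which made 2 of 8 TOR and SnRK1 genes higher and none lower (median -0.01). S6K1 and S6K2 are close paralogs, and how reads were divided between them is uncertain. KIN10, the energy-sensing kinase that opposes TOR, gave -0.11 (limma adjusted p = 0.308). Ribosome biogenesis genes of the nucleolus were higher in 6 of 12 and lower in none (median 1.01, no overlap in 12, and 10 higher with equal totals), and in drought 3 were higher (median 0.88). FIB2, a fibrillarin that methylates ribosomal RNA, went from 202, 193 and 197 to 873, 1086 and 847 (log2 fold change 2.23, standard error 0.19, limma adjusted p = 2.31e-09). Of 23 cytosolic ribosomal protein genes 2 were higher (median 0.38), RPSAB at 2.16 and RPL23AB at 1.14. Autophagy gave 1 higher and 1 lower of 13 (median -0.22), with 3 higher and none lower at equal totals and none lower without re-watered replicate 3.

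Calls among markers of leaf cell types are to be read beside the 30.5% of all tested genes that were DEGs. The called share was 10% for guard cell, 42.9% for xylem, 25% for phloem and 20% for epidermis genes. The light-harvesting and Calvin cycle lists, taken as markers of the mesophyll, are described above. Of 10 guard cell genes 1 was higher and none lower (median 0.05), with 3 higher at equal totals and 2 higher without well-watered replicate 2 or re-watered replicate 1. The higher one was HT1, a kinase of the stomatal response to carbon dioxide (1.24). The only stomatal development gene tested, EPFL9 (stomagen), which promotes stomatal formation and is made in the mesophyll, went from 61.0, 82.9 and 74.3 to 12.7, 12.3 and 26.4 (log2 fold change -2.09, standard error 0.42, limma adjusted p = 0.00017). Xylem genes were lower in 3 of 7 (median -0.70), of which IRX1 and XCP1 lost their calls without well-watered replicate 2. Phloem genes were lower in 1 of 4 (median 0.26) and epidermis genes in 1 of 5 (median -0.71), the latter none at equal totals and 2 without re-watered replicate 3. Of 7 flower and seed markers 2 were tested, and both, AG (a floral organ identity factor) and CRU1 (a seed storage protein), were lower. All 7 together summed to 48.8 to 110 normalized counts in well-watered and 8.50 to 16.7 in re-watered leaves. None of 4 commonly used reference genes was called. ACT2, an actin, gave 0.39, UBQ10, a polyubiquitin, -0.44, PP2AA3, a phosphatase subunit, -0.32 and MON1, a vacuolar trafficking protein, -0.49.

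Several of the 15 DEGs with the largest rise and the 15 with the largest fall, taken where the higher group averaged 100 or more and the groups did not overlap, were outside these lists. AT2G38240, a 2-oxoglutarate and iron dependent oxygenase, went from 0.871, 1.17 and 1.69 to 2569, 4234 and 2551 (log2 fold change 10.42, standard error 0.78, limma adjusted p = 2.38e-10). AT1G27020, a plant protein of undescribed role, went from 80.1, 11.7 and 41.3 to 14965, 15475 and 13038 (log2 fold change 8.68, standard error 0.64, limma adjusted p = 1.73e-10). AT4G21870, of the small heat shock protein superfamily, went from 17.4, 22.2 and 22.8 to 6462, 9151 and 4892 (log2 fold change 8.25, standard error 0.41, limma adjusted p = 3.3e-13). The well-watered samples of all 3 lay far below any re-watered sample. ABR1, an ERF factor that represses ABA responses, had 3 reads in the well-watered libraries together and was 544-fold higher in re-watered leaves (95% counting interval 186 to 2640). On the falling side, GER3, a germin-like protein under circadian control, was at 660 to 3150 in well-watered leaves and had 1 read in the re-watered libraries together, and was 6446-fold lower there (95% counting interval 1156 to 254630). XTH31, a xyloglucan enzyme of the wall, went from 839, 996 and 952 to 7.17, 1.65 and 7.65 (log2 fold change -7.34, standard error 0.57, limma adjusted p = 3.93e-10). BG3, a β-glucanase of pathogen defence, went from 706, 618 and 587 to 6.37, 0.823 and 7.65 (log2 fold change -7.03, standard error 0.84, limma adjusted p = 2.58e-07). CIPK20, a calcium-regulated protein kinase, went from 249, 311 and 284 to 3.19, 0 and 1.70 (log2 fold change -6.97, standard error 0.47, limma adjusted p = 3.86e-11). The re-watered counts of these falling genes were close to 0 in all 3 samples. Of the other locus identifiers in these places, AT3G23550, a MATE family transporter, rose by 7.99 and AT1G14780, with a MAC/perforin domain, by 7.79. AT1G54020, a GDSL lipase, was uneven after re-watering, at 174, 265 and 1157, against 0, 1.17 and 2.53 in well-watered leaves. AT1G52770, of the NPH3 family of phototropism proteins, changed by -7.51, and AT2G20670 and AT3G06880, of undescribed role, by -6.99 and -6.85. Light-harvesting genes filled 6 of the 15 falling places, and the jasmonate genes JAZ8 and CYP94B3 were among the 15 risers.

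The re-watering change differed between WT and the transgenic lines in many genes. The difference, tested as an interaction at an adjusted p under 0.05 and any size, held for 35.4% of tested genes with GC::AtTOR and for 37.1% with 35S::AtTOR, each line being set against its own well-watered leaves. In the light-harvesting list 19 of 20 genes differed in each line, with line medians of -2.47 (GC::AtTOR) and -2.65 (35S::AtTOR) beside -4.69 in WT. All 28 photosystem and electron transport genes differed in each line (medians -1.25 and -1.28, beside -2.94). In cell division 9 and 8 of 16 genes differed (medians -0.32 and -0.27, beside -1.80). Starch genes differed in 20 and 8 of 22 (medians -0.95 and -1.12, beside -1.35). Among clock genes, 3 and 1 of 11 morning and 4 and 6 of 9 evening genes differed. The clock medians were below 0 in all 3 genotypes. They were -2.03 and -2.02 for morning genes, beside -1.51 in WT, and -2.02 and -2.12 for evening genes, beside -2.10. ABA receptors differed in 5 and 6 of 8 (medians 0.74 and 0.92, beside 1.88). For the touch genes 4 and 5 of 20 differed (medians 1.02 and 1.75, beside 2.94), and for jasmonate 12 and 5 of 25 (medians -0.48 and 1.35, beside 1.78). The counts for touch and morning clock genes, and for jasmonate in 35S::AtTOR, are below the shares of all tested genes. The count for starch in 35S::AtTOR is near that share. In GC::AtTOR well-watered leaves, the baseline of that line, the touch list already stood at 2.10, 2.06 and 0.57 above the WT well-watered mean. In 35S::AtTOR well-watered leaves it stood at 0.89, 0.78 and -0.09. After re-watering it stood at 2.63, 2.53 and 2.48 in GC::AtTOR and at 2.24, 2.48 and 2.35 in 35S::AtTOR. The WT re-watered samples were at 2.92, 2.93 and 2.86.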

How the data were processed

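Leaf RNA of 27 samples (3 genotypes, 3 water treatments, 3 replicates each) was sequenced in paired reads on a NovaSeq, and the 6 WT well-watered and re-watered samples were compared. The sources name CASAVA, Trimmomatic, STAR, the TAIR10 genome, Salmon, tximport and DESeq2, and their versions are not given in the sources used here. The authors deposited a normalized signal for 34218 genes, that is, the counts of a gene after division by the DESeq2 size factor of the sample, so depth has been scaled out and gene length has not. Whole reads (tolerance 0.1) were recovered in 26 of the 27 samples, with 100% of values whole in each WT sample compared. The 6 WT samples compared held 12457648 to 16707106 reads each. The shallowest library of the study, 35S::AtTOR re-watered replicate 1, held 2739872. Genes were named through the RefSeq table of TAIR10.1 (32548 matched), and 8784 genes were 0 in all samples.

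Log2(normalized count + 1) values were fitted in R 4.3.3 with limma 3.58.1 (eBayes with a trend, 1 model of 9 groups, 18 residual degrees of freedom), and p-values were adjusted by the Benjamini-Hochberg method over the 18077 genes averaging 10 or more in either group. Genes were named in the text if they were AtTOR, members of 45 lists (658 genes, 589 tested) or cell type marker genes, or among the 15 highest and 15 lowest fold changes of DEGs averaging 100 or more in the higher group with no overlap. These members and lists were chosen with earlier results of these data known. Folds against groups at 0 used a floor of 3 reads per library, folds against 1 to 3 reads have exact 95% intervals, and both cover counting error only. The alternatives were other pseudocounts, filters, scalings, thresholds and sample sets, count models on the recovered reads (edgeR 4.0.16, DESeq2 1.42.0), a replicate block, and leaving out each replicate.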

Additional observations from a re-analysis of the deposited data

Results flagged for a closer look

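The response to re-watering differed between genotypes in many genes, as tested by the interaction term of the limma model at an adjusted p under 0.05. This held for 6395 genes between GC::AtTOR and WT and for 6705 genes between 35S::AtTOR and WT, and both contrasts share the WT samples. Among the 589 list genes tested, 25 differences in 21 genes had WT and the line past the fold limit of 1 in opposite directions, 18 of them with GC::AtTOR and 7 with 35S::AtTOR. Opposite directions were not counted over all 18077 tested genes, so whether list genes hold more of them than other genes was not tested. EXPA8, NYE2, EPFL9 and MAM3 were opposite in both lines. The study's text reports a lowered EPFL9 level in well-watered leaves of the line other than GC::AtTOR. Well-watered levels of the lines are not given here for single genes, and their part in the differences was not tested. The 14 differences larger than 4 on the log2 scale follow, each with the response of WT and then of the line to re-watering. Each adjusted p belongs to the difference between WT and the line. The change of the line by itself was not tested, so its value is a size and not a call.

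MAM3, of glucosinolate chain elongation, changed by 3.31 in WT and -4.83 in GC::AtTOR, a difference of -8.14 (limma adjusted p = 1.29e-05). In 35S::AtTOR it changed by -2.11, a difference of -5.42 (limma adjusted p = 0.00067). EXPA8, an expansin, changed by -3.92 in WT but by 1.67 in GC::AtTOR, a difference of 5.59 (limma adjusted p = 1.61e-05). With 35S::AtTOR it changed by 2.63, a difference of 6.55 (limma adjusted p = 3.29e-06). EPFL9, the stomagen gene, changed by -2.09 in WT and 2.68 in GC::AtTOR, a difference of 4.78 (limma adjusted p = 5.21e-06). NYE2, of chlorophyll breakdown, changed by 1.61 in WT and -2.65 in GC::AtTOR, a difference of -4.25 (limma adjusted p = 0.000289).

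Of the starch list 2 of 22 genes were opposite in GC::AtTOR, while the list median was below 0 in both genotypes (-0.95 in GC::AtTOR and -1.35 in WT). GBSS1, the amylose synthase, changed by 4.47 in WT and -1.17 in GC::AtTOR, a difference of -5.64 (limma adjusted p = 1.81e-08). BAM5, a β-amylase, changed by 2.83 and -2.15, a difference of -4.98 (limma adjusted p = 0.0015). HSFA2, the heat stress factor, changed by 4.06 and -1.05, a difference of -5.11 (limma adjusted p = 4.46e-06). UF3GT, an anthocyanin glycosyltransferase, changed by 3.66 and -1.26, a difference of -4.93 (limma adjusted p = 8.61e-05).

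The remaining 4 differences were in single genes of the jasmonate and salicylic acid lists. AOC1, of jasmonate synthesis, changed by 4.76 in WT and -1.71 in GC::AtTOR, a difference of -6.47 (limma adjusted p = 2.92e-06). PDF1.2, the defensin, changed by 3.72 and -2.44, a difference of -6.16 (limma adjusted p = 0.000682). WRKY62, a transcription factor gene of the salicylic acid list, changed by 2.56 and -2.85, a difference of -5.41 (limma adjusted p = 2.21e-05). AZI1, a lipid transfer protein of systemic defence, changed by 4.00 and -1.45, a difference of -5.45 (limma adjusted p = 2.61e-05), although its WT well-watered libraries held 3 reads together. In the GC::AtTOR well-watered samples that serve as the baseline of that line, the jasmonate list median lay 1.12, 1.04 and 0.58 above the WT well-watered mean, and its part in these differences was not tested.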

How the results depend on the processing

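The numbers of higher and lower DEGs and their share of tested genes stayed within 1.5 times of the values above in every alternative run but the one without a fold limit, which gave 5896 higher and 5790 lower genes, 64.6% of those tested. The total of 5515 DEGs otherwise ran from 4395 (mean of at least 50) to 6323 (no filter). edgeR called 5623 genes (5463 shared with limma) and DESeq2 5621 (5474 shared, with 3 adjusted p-values not given). Equal sample totals gave 5950 (4679 shared). No gene called in both fits changed direction in any alternative. Leaving out 1 of the 6 samples compared gave 2448 to 2601 higher and 2706 to 2927 lower DEGs, a share of 28.5 to 30.6%. Of the gene calls named by the rule, 148 of the values under alternatives lost the call and 8886 did not. The 5 reversals all belonged to AtTOR, whose difference of -0.02 was not called in any alternative. It was 0.30 with equal totals and 0.0107 with the library number as a block, and -0.0837 to 0.0122 when 1 replicate was left out. The 30 genes with the largest changes kept their calls in all leave-one-out fits.

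Whether replicate numbers pair these samples cannot be settled with 3 samples a group. The deviations of same-numbered well-watered and re-watered replicates correlated at 0.113, 0.0577 and -0.0283 across genes. Samples that share a library number correlated at -0.127 (number 2) and -0.0283 (number 4). With the replicate block, 5528 genes were called (2642 higher and 2886 lower, 5506 shared), and with the library number as the block 5506. Depth limited the genes with 3 reads or fewer in a group, whose folds have wide counting intervals. Only 3 samples a group, unknown harvest times for the well-watered plants, and a normalized total that differs between the groups limit every fold change given here. Without drought replicate 3, whose jasmonate and touch genes stood apart, 5537 genes were called, and without the shallowest library, 35S::AtTOR re-watered replicate 1, 5550. Both alternatives were chosen after seeing the data.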
